A study of Mus musculus with 24 samples.

Results

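Small nucleolar RNA (snoRNA) genes were taken from the hippocampal count tables as every row whose symbol begins with Snord or Snora followed by a number and that held at least 1 count over the 24 libraries. Of 138 rows with such a symbol, 70 met this rule, among 49568 rows in all. They comprised 50 C/D box genes (Snord) with 11625 counts and 20 H/ACA box genes (Snora) with 5086 counts. Together these 16711 counts were 0.00153% of the 1088918528 counts in the series. A further 1321 rows annotated as snoRNA under other symbols held 31186 counts and were not taken. All snoRNA counts, sums, shares and levels below therefore cover the 70 genes and not all snoRNA.

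The study asked how MSK1, a kinase that phosphorylates CREB and histone H3, and environmental enrichment act on the hippocampus of Aged male mice. Poly(A) RNA was sequenced from 24 hippocampal libraries, 1 mouse each, in 4 groups of 6. WT mice lived in standard housing (WTSH) or in enrichment (WTEE), and MSK1 KD mice likewise (KDSH in standard housing, KDEE in enrichment), where KD denotes homozygotes for a knock-in point mutation that inactivates the N-terminal kinase domain. WT and MSK1 KD mice were kept as separate lines on a C57-Bl/6J background, so the genotype and the line cannot be told apart. Enrichment began at 18 months, and RNA was prepared from both housing groups when the mice were 21 to 23 months old. The study used 21 of the libraries (4 WTSH, 6 WTEE, 5 KDSH and 6 KDEE) and set aside samples 4 and 7 of WTSH and sample 6 of KDSH as left-out libraries. The left-out libraries failed quality control in the paper, which reports low correlation with the other libraries of their group. It also reports a large degree of mapping to ribosomal RNA in them, and takes this as a sign of poor RNA purification. The groups below hold the 21 used libraries, and samples 4, 6 and 7 are given apart.

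SnoRNAs are short nuclear RNAs that guide the chemical modification of other RNAs, above all ribosomal RNA. C/D box snoRNAs carry fibrillarin and guide 2'-O-methylation, whereas H/ACA box snoRNAs carry dyskerin and guide pseudouridylation, and a few of either kind are needed for the cleavage of the ribosomal RNA precursor. In mammals most are cut out of introns of host genes, many of which encode ribosomal proteins, and the mature snoRNA ends without a poly(A) tail.

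The sequences below show what the names stand for, with 2 C/D box and 2 H/ACA box genes named in the results and a pair of near-identical copies. Capitals mark TGATGA within the first 20 bases (box C with its flanking bases), the last CTGA within the last 20 bases (box D) and the ACA before the last 3 bases. Each is given 5' to 3' on its own strand from GENCODE M21, an annotation of GRCm38.
Snord91a: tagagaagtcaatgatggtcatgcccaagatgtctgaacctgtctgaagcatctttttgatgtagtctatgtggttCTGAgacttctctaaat
Snord17: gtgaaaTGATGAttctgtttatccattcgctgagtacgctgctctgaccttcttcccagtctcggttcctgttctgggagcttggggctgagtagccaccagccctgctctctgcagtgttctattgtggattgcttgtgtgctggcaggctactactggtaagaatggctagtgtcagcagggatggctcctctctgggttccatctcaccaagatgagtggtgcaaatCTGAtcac
Snora31: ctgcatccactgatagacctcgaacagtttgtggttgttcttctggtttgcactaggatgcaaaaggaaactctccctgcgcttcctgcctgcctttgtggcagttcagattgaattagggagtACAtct
Snora23: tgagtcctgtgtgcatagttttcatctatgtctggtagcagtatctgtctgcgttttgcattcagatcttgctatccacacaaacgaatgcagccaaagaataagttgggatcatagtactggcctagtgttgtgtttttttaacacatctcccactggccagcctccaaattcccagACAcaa
Snord116l12: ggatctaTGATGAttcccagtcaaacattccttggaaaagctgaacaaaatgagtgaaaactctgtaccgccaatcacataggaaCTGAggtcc
Snord116l14: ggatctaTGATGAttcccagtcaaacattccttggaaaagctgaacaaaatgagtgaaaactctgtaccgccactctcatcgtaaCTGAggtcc

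Snord91a is an intronic gene of Tsr1 at chr11:74905424-74905516 on the plus strand, and Snord17 an intronic gene of Snx5 at chr2:144265979-144266216 on the minus strand. Snora31 lies in Tpt1 at chr14:75847905-75848034 on the plus strand and Snora23 in Ipo7 at chr7:110046364-110046547 on the plus strand. At 238 bases Snord17 was the longest of all 138 gene models, which had a median length of 84.5 bases for C/D box genes and 132.5 bases for H/ACA box genes. Snora23, with 184 bases, was the longest H/ACA box gene with counts. The letters separated the families as their names say. CTGA near the 3' end was found in 96 of 98 C/D box genes (98.0%) and 4 of 40 H/ACA box genes, and TGATGA near the 5' end in 69 (70.4%) and 0 of them. ACA before the last 3 bases was found in 34 of the 40 H/ACA box genes (85.0%) and in 0 of the C/D box genes.

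The rows with and without counts differed in where they lie. Of the 68 rows at 0, 52 lay whole and 2 partly within annotated exons of other genes, and read pairs were counted without strand, with the setting for overlapping genes not given in the sources used here. A further 13 were copies of Snord116, a C/D box snoRNA of the imprinted Snhg14 cluster whose copies were each at least 95% identical to other gene models, while the authors kept unique alignments. The remaining row, Snora43, had 2 gene models. Of the 70 rows with counts, by contrast, 56 lay outside the exons of other genes, 8 partly and 6 whole within them. The part of these overlaps and copies in the counts of 0 was not tested, and a count of 0 here does not show that a snoRNA was absent. The levels of the 14 counted genes that share exons are uncertain, among them Snora28, Snora33, Snora16a and Snord69, which lay whole within an exon of Eif5, Rps12, Snhg12 and Gnl3.

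**Figure D1:**
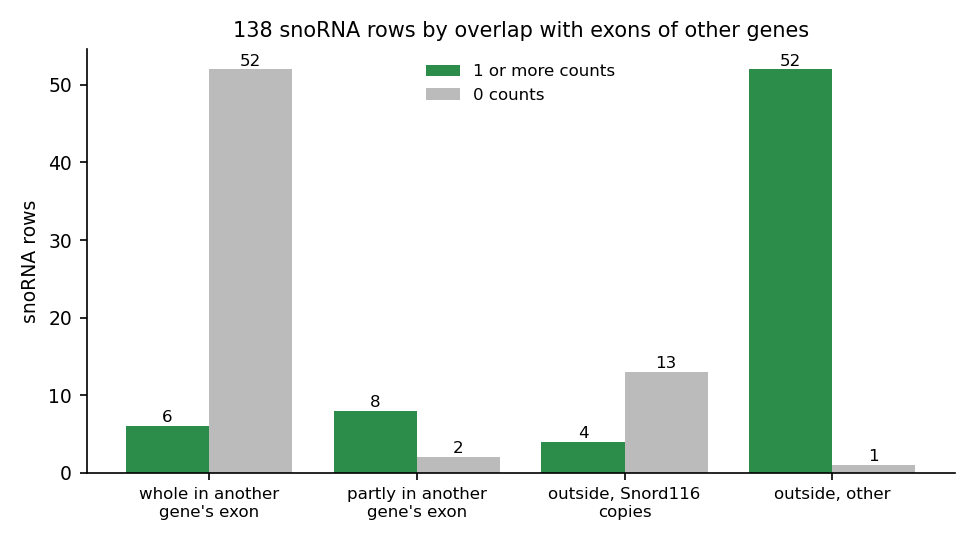
Number of snoRNA rows with 1 or more counts (green) and with 0 counts (grey) over the 24 libraries, by the overlap of the gene model with exons of other genes in GENCODE M21. Of the rows whole within another gene's exon 6 had counts and 52 had none, whereas outside such exons and apart from Snord116 copies 52 had counts and 1 had none.

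Several snoRNAs of ribosomal RNA cleavage were among the rows at 0. Snord14a, Snord22, Snora73a and Snora73b had 0 counts, and each lay whole within exons of another gene. Snord118, which is needed for processing of the large-subunit rRNAs and has no host gene in this annotation, held 27 counts over the 24 libraries and was at 0 in 11 of the 21 used libraries. Snord13, another snoRNA without a host, held 8 counts and was at 0 in 18 of the 21. Of the imprinted brain snoRNAs, Snord64 and Snord107 were at 0 and lay within exons, and 4 Snord116 copies held 23 counts in all, 19 of them on Snord116l12. Levels of these genes could not be compared between groups at this depth, where 3 counts corresponded to 0.0417 to 0.109 CPM in the used libraries (CPM, counts scaled to a common total per library).

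A few of the 70 genes supplied most of their counts. In the 21 libraries the mean level was above 1 CPM for 3 genes and under 0.1 CPM for 39 of the 70. Snord91a held 23.0% of the snoRNA counts at 3.39 CPM ± 0.451 (SD, n = 21), Snord104 held 13.4% at 1.93 ± 0.408, and Snora28, whole within an exon of Eif5, held 8.66% at 1.27 ± 0.240. Per kilobase of gene model these 3 stayed first, at 36.5, 27.6 and 10.01 CPM per kb. Next came Snord55 (5.52 CPM per kb), Snord69 within an exon of Gnl3 (5.25), Snora31 in Tpt1 (4.61), Snord49a (3.97), Snord7 (3.46) and Snora17 (3.33), the last without a host gene. By mean CPM, Snora16a within an exon of Snhg12 (0.406 CPM ± 0.108, SD, n = 21) was also among the first 10. The median over all 50 C/D box genes was 0.553 CPM per kb and that over the 20 H/ACA box genes 1.22 CPM per kb, on a scale where the genes with counts ranged from 0.00597 to 36.5.

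The summed level of snoRNAs overlapped between the 4 groups. The sum over C/D box genes in WTSH libraries 2, 5, 19 and 23 was 9.91, 10.2, 10.1 and 10.1 CPM, and in KDSH libraries 1, 3, 8, 18 and 24 it was 10.02, 10.4, 9.63, 10.6 and 10.4 CPM. In WTEE the lowest, median and highest sums were 9.07, 10.1 and 11.7 CPM, and in KDEE 8.92, 9.63 and 10.5 CPM. No group stood apart from another. Group means were 10.1 ± 0.0989 (SD, n = 4) in WTSH, 10.2 ± 0.970 (n = 6) in WTEE, 10.2 ± 0.374 (n = 5) in KDSH and 9.72 ± 0.660 (n = 6) in KDEE.

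H/ACA box sums were lower and more spread. They were 4.09, 3.97, 3.89 and 5.05 CPM in the WTSH libraries and 4.88, 5.26, 4.47, 4.80 and 6.09 CPM in the KDSH libraries, in the order above. WTEE ran from 3.75 through a median of 4.77 to 5.06 CPM, and KDEE from 3.96 through 4.46 to 4.97 CPM. KDSH had the highest mean, 5.10 ± 0.621 (SD, n = 5) against 4.25 ± 0.543 (n = 4) in WTSH and 4.44 ± 0.334 (n = 6) in KDEE, but the ranges overlapped in each of these comparisons. C/D box genes held 70.3% ± 2.61 of the snoRNA counts in WTSH, 68.9% ± 3.10 in WTEE, 66.8% ± 2.29 in KDSH and 68.6% ± 1.56 in KDEE (SD), and again no pair of groups compared was separate. These sums were described and not tested, and in bulk tissue fewer cells of a type and less RNA per cell cannot be told apart.

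**Figure D2:**
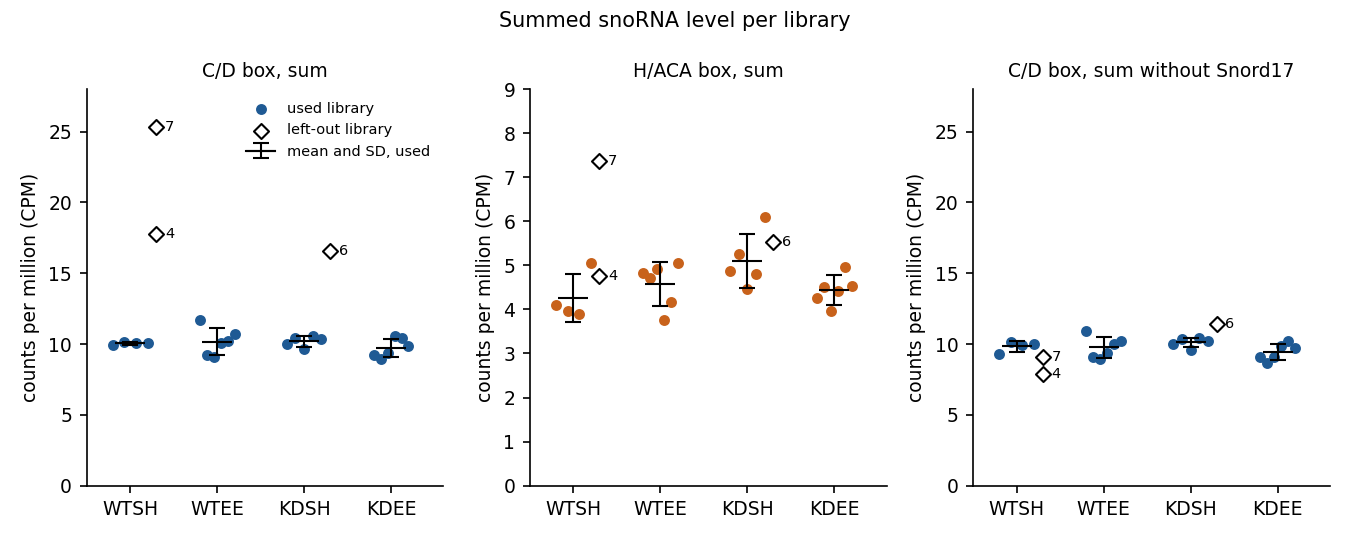
Summed snoRNA level per library in CPM for C/D box genes, H/ACA box genes, and C/D box genes without Snord17, by group. Filled points are used libraries, black bars the mean and SD over them, and open diamonds the left-out libraries with their sample numbers. Used libraries overlapped between groups, and the left-out libraries at 16.6 to 25.3 CPM stood above them in the first panel.

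No snoRNA gene passed the threshold in any comparison of the groups. Of the 70 genes, 26 (14 C/D box and 12 H/ACA box) passed the filter on low counts and were tested among 20187 genes with edgeR's quasi-likelihood test, and 0 of 26 were called in each of 5 contrasts where a call needed an adjusted p below 0.05 together with a log2 fold change beyond 0.38 in either direction. The same test called 0.0% of all genes in each contrast. DESeq2 called 0 snoRNA genes in every contrast as well. It called 0.00529% of the genes with an adjusted p for WTEE against WTSH, where all 70 snoRNA genes had one, and 0.0866% for KDEE against KDSH, where 3 had one. For KDSH against WTSH it called 0.0% with all 70 included, for WTEE against KDEE 0.438% with 50 included, and for the difference between the enrichment effects of WT and MSK1 KD mice 0.0762% with 49 included.

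At an unadjusted p under 0.05 in edgeR, a few snoRNA genes passed, and the share of all genes that did so is given beside each count. There was 1 of 26 for WTEE against WTSH (higher), where 6.55% of all genes passed, and 3 of 26 for KDEE against KDSH (1 higher, 2 lower), where 11.6% passed. There were 0 of 26 for KDSH against WTSH and for WTEE against KDEE, where 1.0% and 4.99% passed, and 1 of 26 for the difference of the enrichment effects (higher in WT), where 3.26% passed. The median log2 fold change of the 26 genes was -0.05 for WTEE against WTSH and -0.13 for KDEE against KDSH, beside 0.01 and 0.00 for all genes. It was 0.09 for KDSH against WTSH, 0.13 for WTEE against KDEE and 0.12 for the difference, with 0.00 for all genes in each. For KDEE against KDSH, 21 of the 26 estimates were below 0, none past the adjusted threshold. In the other contrasts 15 (WTEE against WTSH), 9 (KDSH against WTSH), 8 (WTEE against KDEE) and 10 (the difference) were below 0. Estimates of 1 contrast share the same libraries and are not independent. Among the genes with the most counts the estimates were small for Snord91a and Snora28, while Snord104 had 0.31 (SE 0.18) for WTEE against WTSH. For Snord91a the 5 estimates ran from -0.18 to 0.06, and for Snora28 from -0.07 to 0.11.

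**Figure D3:**
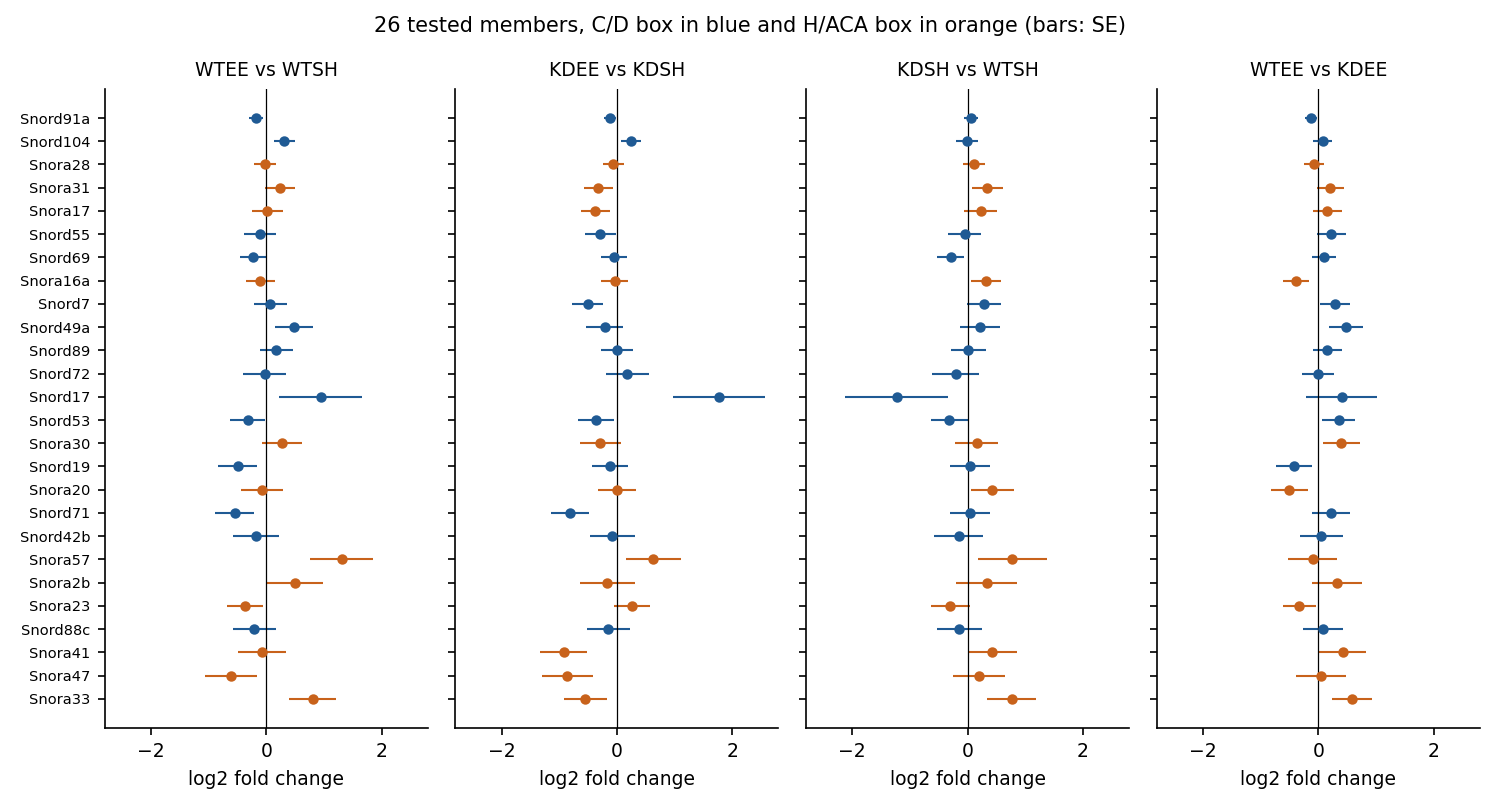
Log2 fold change (x axis) with its standard error (bars) for the 26 tested snoRNA genes in 4 comparisons, ordered by mean level, with C/D box genes in blue and H/ACA box genes in orange. Estimates lie around 0, no gene passed the adjusted threshold, and the bar is widest for Snord17.

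The smallest p values for enrichment in WT mice were those of Snora57, Snora33 and Snord104. Snora57, an H/ACA box gene without a host in this annotation, was at 0, 0.101, 0.0577 and 0.211 CPM in WTSH libraries 2, 5, 19 and 23, and in WTEE had a lowest, median and highest of 0.125, 0.178 and 0.553 CPM. The groups overlapped, and the top value came from WTEE library 10. Its log2 fold change was 1.30 (SE 0.55), with an adjusted p of 0.651 in edgeR's quasi-likelihood test with Benjamini-Hochberg adjustment. Without WTEE library 10 it was 0.85, and leaving out single WTSH libraries gave from 0.92 (library 2) to 2.05 (library 23). Snora33, whole within an exon of Rps12 and so of uncertain level, had an estimate of 0.80 (SE 0.40) and Snord104 of 0.31 (SE 0.18), each at an adjusted p of 0.651 in edgeR.

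For enrichment in MSK1 KD mice the smallest p values were those of Snord71, Snora41 and Snord17. Snord71, a C/D box gene in Ap1g1, was at 0.119, 0.215, 0.322, 0.286 and 0.474 CPM in KDSH libraries 1, 3, 8, 18 and 24, and in KDEE had a lowest, median and highest of 0.0841, 0.166 and 0.236 CPM. Most KDSH values lay above the KDEE median, but the groups overlapped. Its log2 fold change was -0.81 (SE 0.33), with an adjusted p of 0.396 in edgeR, and -0.57 without KDSH library 24. Snora41 in Eef1b2, the gene of a translation elongation factor, was at 0.262, 0.0956, 0.279, 0.286 and 0.225 CPM in the KDSH libraries and from 0.0659 through 0.134 to 0.169 CPM in KDEE. Its KDSH library 3 lay within the KDEE range and the other KDSH libraries above it. The estimate was -0.92 (SE 0.41) with an adjusted p of 0.405 in edgeR.

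Between genotypes the smallest p values were those of Snora33, Snord17 and Snora57 in standard housing and of Snora16a, Snord49a and Snora33 after enrichment. Their estimates for KDSH against WTSH were 0.76 (SE 0.43), -1.23 (SE 0.89) and 0.77 (SE 0.59), and for WTEE against KDEE -0.38 (SE 0.23), 0.49 (SE 0.29) and 0.59 (SE 0.35). All had adjusted p values of at least 0.957 in edgeR. For the difference of the enrichment effects, Snora33, Snora31 and Snord49a came first. Snora33, the exon-sharing gene above, was at 0.107, 0.142, 0.115 and 0.0842 CPM in WTSH and at 0.214, 0.215, 0.129, 0.102 and 0.325 CPM in KDSH, in the order above. In WTEE it ran from 0.111 through 0.170 to 0.395 CPM and in KDEE from 0.0365 through 0.132 to 0.184 CPM. The difference was 1.35 (SE 0.55) with an adjusted p of 0.9999 in edgeR, on 1 to 20 counts per library. Snora31 (0.56, SE 0.36) and Snord49a (0.69, SE 0.45) had the same adjusted p.

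The genes that carry and process snoRNAs gave no calls either. The C/D box proteins Fbl (fibrillarin), Nop56, Nop58 and Nhp2l1 and the H/ACA box proteins Dkc1 (dyskerin), Nhp2, Nop10 and Gar1 were all tested, as were 19 of 19 assembly and processing factors and 19 of 26 host genes listed by name, such as Gas5 and the Snhg genes. In each of the 5 contrasts 0 of them were called by edgeR. At an unadjusted p under 0.05 the most were found for KDEE against KDSH, where 11.6% of all genes passed, with 1 of 4 C/D box proteins, 0 of 4 H/ACA box proteins, 3 of 19 factors and 4 of 19 hosts. For WTEE against WTSH (6.55% of all genes) there were 1, 1, 0 and 1, for WTEE against KDEE (4.99%) 0, 1, 0 and 2, and for KDSH against WTSH (1.0%) and the difference of the enrichment effects (3.26%) 0 in each list. The list by name was drawn up with Meg3, Mirg and Ube3a in it, none of them annotated as host of a counted snoRNA gene. Its 4 genes for KDEE against KDSH were Snhg11, Snhg14, Meg3 and Mirg, and its 2 for WTEE against KDEE were Snhg4 and Mirg. The 22 tested hosts of the 26 tested snoRNAs, which overlap the list by name, gave 0 calls and median log2 fold changes from -0.06 to 0.09. Of 10 rows for scaRNAs, relatives that act in Cajal bodies, and telomerase RNA, 4 were tested and 0 called.

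Snord17 varied the most among used libraries of the 26 tested genes. Its coefficient of variation over the 21 was 97.6%, against 13.3% for Snord91a and 60.3% for Snora57, the next highest of these, while some untested genes of lower level had higher coefficients. It was at 0.621, 0.0405, 0.115 and 0.0421 CPM in WTSH libraries 2, 5, 19 and 23, and at 0.0238, 0.0956, 0.0430, 0.143 and 0.125 CPM in KDSH libraries 1, 3, 8, 18 and 24. In WTEE the lowest, median and highest were 0.0973, 0.350 and 0.790 CPM, and in KDEE 0.118, 0.231 and 0.694 CPM. The high values fell on a few libraries in 3 of the groups. WTEE 10, WTEE 16, KDEE 15, WTSH 2 and WTEE 21 had 0.539 CPM or more, and the other 16 had 0.0238 to 0.326 CPM.

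These 5 libraries were also the 5 with the most Rn7sk, an RNA polymerase III transcript without a poly(A) tail, at 28.9 to 50.2 CPM in them and 0.527 to 22.3 CPM in the others. They held 4 of the 5 highest levels of Rpph1, the RNA of ribonuclease P. They also held 4 of the 5 highest shares of a list of 12 rRNA-derived and other structural RNA rows. That list was drawn up with the protein-coding gene Lars2 in it. Of the other used libraries WTEE 11 had the most Rn7sk, at 22.3 CPM, but Snord17 at 0.107 CPM. The log2 fold change of Snord17 for KDEE against KDSH was 1.76 (SE 0.80, adjusted p = 0.414 in edgeR), and that of Rn7sk in the same contrast 1.65 (adjusted p = 0.502 in edgeR). For KDSH against WTSH they were -1.23 and -1.68. Without WTSH library 2 the Snord17 estimate for KDSH against WTSH turned to 0.35, and with all 24 libraries that for KDEE against KDSH turned to -1.66. The part of such RNAs in the Snord17 estimates was not tested.

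The left-out libraries differed from the used ones in the same gene. C/D box sums were 17.8, 25.3 and 16.6 CPM in samples 4, 7 and 6, or 1.77, 2.52 and 1.60 times the median used library of their own group, and all 3 were above every used library. The H/ACA box sums of 4.75, 7.38 and 5.53 CPM were 1.18, 1.83 and 1.13 times that median, and that of sample 7 alone lay above every used library. The C/D box share was 78.9% (exact 95% interval 74.3 to 83.1), 77.4% (74.3 to 80.4) and 75.0% (72.0 to 77.8), against 63.0 to 72.9% over the used libraries. Intervals cover counting error alone.

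Most of the difference in the C/D box sum lay in Snord17, although sample 6 stayed above every used library without it. Snord17 was at 9.87 CPM (exact Poisson 95% interval 8.39 to 11.6, 156 counts) in sample 4, 16.3 CPM (14.7 to 18.0, 379 counts) in sample 7 and 5.13 CPM (4.45 to 5.88, 203 counts) in sample 6. These levels were 12.5, 20.6 and 6.49 times the highest used library. Snord17 held 55.5%, 64.2% and 31.0% of the C/D box counts there, and 0.238 to 7.08% in the used libraries. Without it the C/D box sums were 7.91, 9.05 and 11.4 CPM, against 8.68 to 10.9 CPM in the used libraries, and the C/D box share was 62.5%, 55.1% and 67.4% against 62.7 to 71.9%. Sample 4 then lay below every used library in the sum, and samples 4 and 7 below every used library in the share.

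Its host Snx5, a sorting nexin gene, showed no such excess. It was at 58.0, 53.4 and 77.9 CPM in samples 4, 7 and 6, or 0.748, 0.689 and 1.01 times the mean of the used libraries of the same group. The median of the same ratio over the 23937 genes with 50 or more counts and a mean above 0 in the used WTSH libraries was 0.752 in sample 4 and 0.731 in sample 7, and over the 23933 such genes in KDSH it was 0.930 in sample 6. The structural RNA rows took 25.9%, 25.8% and 6.96% of all counts in these libraries and 0.571 to 3.15% in the used ones, which lowers the CPM of every other gene. Rn7sk was at 836, 996 and 318 CPM. The part of such RNAs in the level of Snord17 was not tested.

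**Figure D4:**
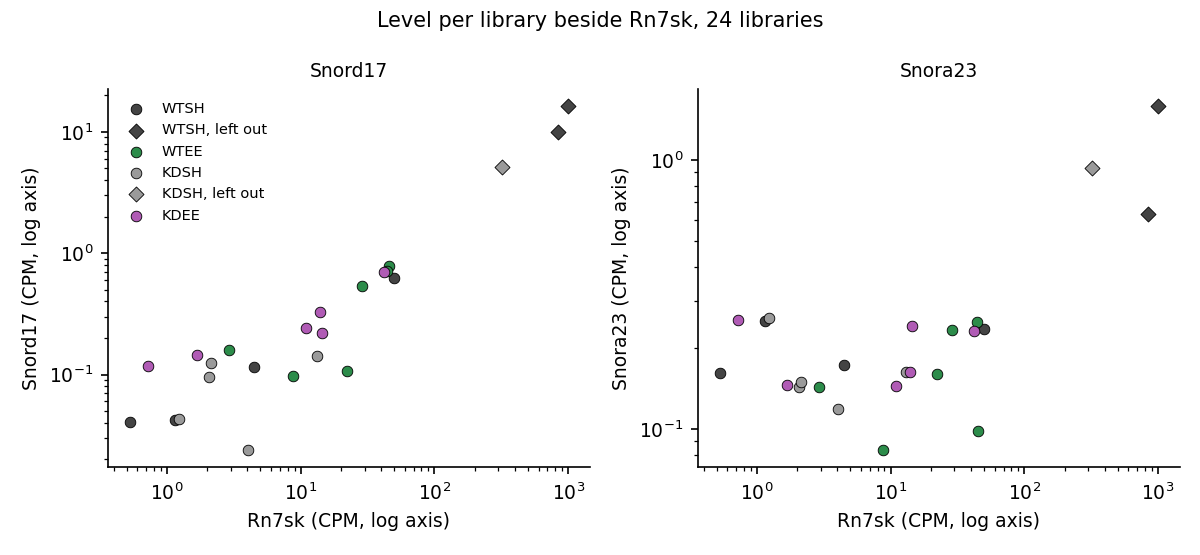
Snord17 (left) and Snora23 (right) against Rn7sk, all in CPM on log axes, with 1 point per library, coloured by group and with diamonds for the left-out libraries. Snord17 is high in the left-out libraries and in the 5 used libraries with the most Rn7sk, but not in WTEE 11, which comes next. Snora23 is above 0.258 CPM in the 3 left-out libraries.

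A limit of 50 or more counts over all 24 libraries kept 44 snoRNA genes. This total includes the left-out libraries, so genes high in them could pass through them. Of the 44, 4 were above every used library in all 3 left-out libraries, namely Snord17, Snora23, Snord15a and Snora21. Snora23 was at 0.633, 1.59 and 0.935 CPM in samples 4, 7 and 6 and at 0.0834 to 0.258 CPM in the used libraries. Snord15a, a C/D box gene of 148 bases in Rps3, was at 0.253, 1.12 and 0.328 CPM with a highest used level of 0.0988 CPM. It held 4, 26 and 13 of its 71 counts in samples 4, 7 and 6. Snora21, an H/ACA box gene in Rpl23, was at 0.190, 0.686 and 0.177 CPM with a highest used level of 0.110 CPM. These levels rested on 3, 16 and 7 of its 56 counts. Snord15a and Snora21, and likewise Snora62, would not have reached 50 counts in the used libraries alone. In sample 4, 7 of the 44 were above every used library, beside 7.51% of the 23944 genes with as many counts. In sample 7 there were 10 of 44 beside 5.88%, and in sample 6 9 of 44 beside 1.89%.

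Other genes had lower relative levels in the left-out libraries. The lowest ratios of samples 4 and 7 together to the used WTSH mean were those of Snord65 (0 counts in both libraries), Snora34 (0.183) and Snord69 (0.216). The 3 highest were Snord17 (63.8), Snord15a (18.7) and Snora21 (14.3). By length, the 22 genes under 100 bases, all C/D box, had a median ratio of 0.581 in sample 4, 0.798 in sample 7 and 0.939 in sample 6. The 17 genes of 100 to under 140 bases (3 C/D and 14 H/ACA) had medians of 1.12, 1.36 and 0.771, and the 5 genes of 140 bases or more (2 C/D and 3 H/ACA) had medians of 3.08, 7.71 and 5.61. Length and box type go together in these classes and cannot be told apart, the length limits were chosen after the values were seen, and many ratios rest on under 10 counts.

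**Figure D5:**
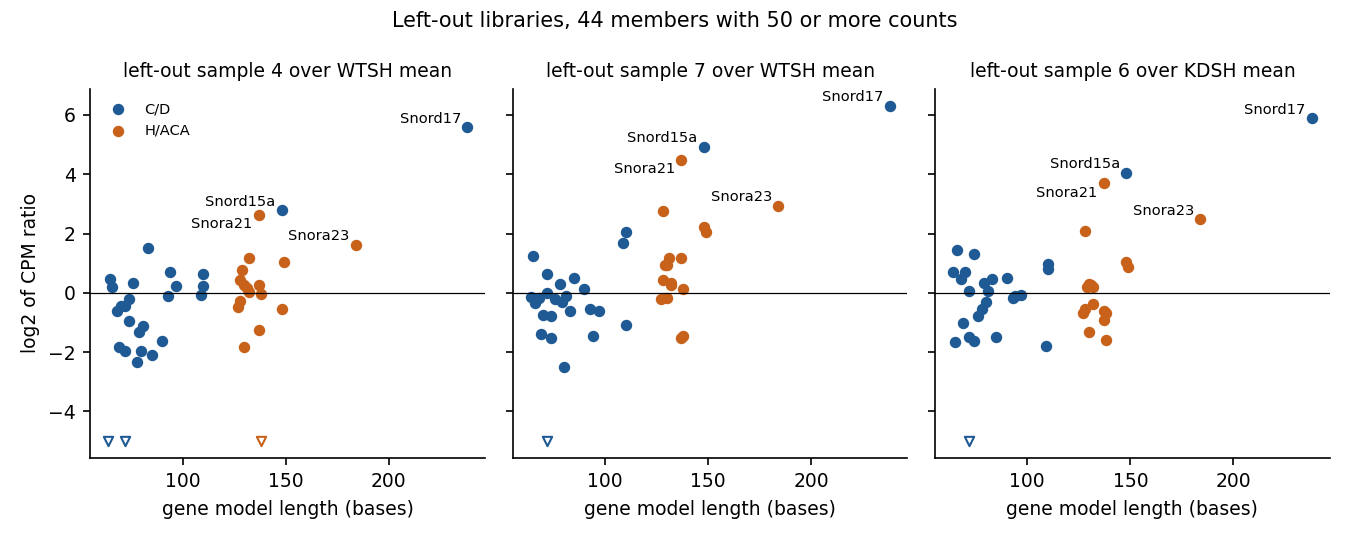
Log2 ratio of the CPM in each left-out library to the mean of the used libraries of its group (y axis) against the length of the gene model in bases (x axis) for 44 snoRNA genes, with C/D box genes in blue and H/ACA box genes in orange. Open triangles at the bottom mark genes with 0 counts in that library. Snord17, at 238 bases, has the highest ratio in all 3 libraries.

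The scaRNAs, which are close in structure to snoRNAs but were not members, were high in the same libraries. Their summed level was 14.8, 17.9 and 6.54 CPM in samples 4, 7 and 6, against 0.438 to 5.43 CPM in the used libraries. The hosts of the 44 genes, 35 in number, had median ratios of 0.679, 0.667 and 1.15 to the used libraries of their group. Markers of hippocampal excitatory neurons (Snap25, Slc17a7, Camk2a, Neurod2 and Rbfox3) had counts in every library, with a summed level of 7402 to 8729 CPM in 20 used libraries, 5604 CPM in WTEE library 10 and 5911 to 7487 CPM in the left-out libraries. Other marker sums reached below the used range in the left-out libraries, with lowest levels of 134 CPM for microglia (lowest used 193), 3024 CPM for oligodendrocytes (4025), 3372 CPM for astrocytes (4012), 418 CPM for interneurons (460) and 273 CPM for CA pyramidal cells (299). The sum for dentate granule cells stayed within the used range, at 178 to 191 CPM against 166 to 275 CPM. The pituitary markers reached 398 CPM in the left-out libraries against 238 CPM at most in the used libraries. The part of these differences in the snoRNA levels was not tested.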

How the data were processed

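Libraries were made from poly(A) RNA of 24 hippocampi. The authors trimmed the reads, mapped them to GRCm38 (STAR 2.5) and tallied unique alignments per gene with HTSeq 0.6.1p1, ignoring strand. The deposited values are unnormalized read-pair counts for each symbol, and HTSeq's setting for reads that overlap several genes is not given in the sources used here. Totals were 27410239 to 71907130 counts in the 21 used and 15800187 to 39585901 in the 3 left-out libraries. PCR copies were not told apart.

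Levels are CPM, with all gene counts of a library as the total. Genes were tested with edgeR 4.0.16 in R 4.3.3 (quasi-likelihood test, TMM, default filter on low counts, 21 libraries, 4 groups in 1 model, Benjamini-Hochberg adjustment over 20187 genes). DESeq2 1.42.0, another scaling, other filters, all 24 libraries and leaving out each library in turn were tried. On simulated data for WTEE against WTSH over 20187 genes, 190 of 200 changed genes (log2 fold change 1) were recovered with 5 false calls. The changed genes were drawn from genes with more counts per library than most tested snoRNA genes have. The recovery therefore does not show how many changed snoRNA genes would be found. Each library is 1 mouse, so p values measure the spread between these mice. Sample numbers differ between groups and the labels name no litter or cage, so samples were treated as unpaired. Gene models, hosts and sequences come from GENCODE M21, of which 138 of 138 rows matched a model.

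Members and lists were chosen with earlier results of these data known. Genes named are the 10 with the highest mean CPM, the 3 with the smallest edgeR p per contrast, the imprinted and rRNA-cleavage snoRNAs, the 3 highest and 3 lowest ratios of samples 4 and 7 to WTSH, and their hosts, of which 1 is not reported here. Snora23 and the structural RNAs set beside Snord17 fall outside this rule and were chosen after their values were seen.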

Additional observations from a re-analysis of the deposited data

Results flagged for a closer look

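Each group of 4 to 6 used libraries was checked for a single library far from the others. The check covered the sums, the C/D box share and 15 named genes, 72 group values in all, and it picked out 7. Chance picks about 1 in 20 of independent values. That rate is no yardstick here, since many of the genes were named from these same data and values of 1 library are not independent. In WTEE library 10, Snord104 was at 3.06 CPM, Snora31 at 1.19 CPM, Snora57 at 0.553 CPM and Snora33 at 0.395 CPM, in each case the highest of the group. In that library the 12 ribosomal-protein hosts of counted snoRNA genes summed to 4276 CPM, against 2135 to 2821 CPM in the other 20, and the excitatory neuron markers to 5604 CPM, against 7402 to 8729 CPM. Their part in the snoRNA levels was not tested. Snord69 stood apart at 0.607 CPM in WTEE library 16. Snord17 stood apart at 0.621 CPM in WTSH library 2 and at 0.694 CPM in KDEE library 15, 2 of the 5 used libraries with the most Rn7sk.

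Samples 4, 6 and 7, which enter the comparisons of groups as an alternative only, lay above every used library in several measures. The C/D box sum was 17.8 CPM in sample 4, 16.6 CPM in sample 6 and 25.3 CPM in sample 7, and the H/ACA box sum 7.38 CPM in sample 7. The C/D box share of snoRNA counts was 78.9%, 75.0% and 77.4% in samples 4, 6 and 7. Snord17 was at 9.87, 5.13 and 16.3 CPM and Snora23 at 0.633, 0.935 and 1.59 CPM in the same order.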

How the results depend on the processing

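The count of called snoRNA genes was 0 in every contrast under each of 28 settings (edgeR as reported, DESeq2, RLE scaling, 2 other filters, no fold threshold, all 24 libraries, and leaving out each of 21 libraries). With at least 10 counts required in every library, most named genes were no longer tested, so that they have no value there. In the used libraries the difference in summed snoRNA CPM was 0.435 for WTEE against WTSH, -1.13 for KDEE against KDSH and 0.997 for KDSH against WTSH. With all 24 libraries it became -4.00, -2.27 and -2.31 in that order. The left-out libraries had sums of 22.5 and 32.7 CPM in WTSH (samples 4 and 7) and 22.1 CPM in KDSH (sample 6). The Snord17 log2 fold change reversed to -1.66 for KDEE against KDSH with all 24 libraries and to 0.35 for KDSH against WTSH without WTSH library 2, where leaving out single libraries gave -1.57 to 0.35. The log2 ratio of the C/D box sum of sample 4 to the median WTSH library was 0.82. It was 1.23 with TMM scaling, 1.24 as CPM of the counts outside structural RNA rows and -0.34 without Snord17, a setting chosen after seeing the data. For sample 7 it was 1.33, and 1.78, 1.74 and -0.14 in that order. For sample 6, added after seeing the data, it was 0.68, and 0.80, 0.77 and 0.16. The H/ACA box ratio went from 0.24 to 0.61 and 0.64 in sample 4 and from 0.87 to 1.29 and 1.27 in sample 7 under the first pair of settings. No paired analysis was possible because the labels give sample numbers alone, and none occurs in more than 1 group. Depth limits most of these genes, of which 39 of 70 had a mean under 0.1 CPM.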
